A study of Rattus norvegicus with 3 samples.

Results

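Genes of vesicle trafficking and membrane fusion were examined in rat kidney inner medulla, where lithium-treated rats were compared with control rats on 3 two-colour arrays. The genes were taken by a symbol rule that uses no measured value, though earlier results of these data were known when it was set. The rule takes Rab, Arf, Sec, Snap and Syt symbols followed by a digit, and symbols beginning with Vamp, Stx, Nsf, Napa, Napb, Napg, Ap1, Ap2, Ap3 or Copb. This gave 89 of the 4390 genes named on the array, read by 97 probes. Of these, 76 had a value on all 3 arrays and entered the test, and the other 13 had values on arrays 1 and 2 only. Lithium treatment lasted 1 month, and lithium RNA was labelled red and control RNA green on every array. Arrays 1 and 2 compared RNA of 2 lithium-treated rats with RNA of 2 control rats, and array 3 compared 1 rat with 1 rat. The labels number different rats for each array and give no strain, age, sex, dose or diet. A deposited value is a log ratio of the channels whose base was not stated. It is given here after subtracting each array's median and read as lithium over control, which the dye labels make likely but the table did not state. Since no array had the dyes exchanged, a dye effect and a lithium effect cannot be told apart for any gene.

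Traffic between membranes runs in steps that these families divide among themselves. Arf GTPases and coat proteins (COPI, COPII and the clathrin adaptors) bud a vesicle off, Rab GTPases mark each compartment and recruit the machinery that moves and tethers vesicles, and SNAREs on vesicle and target membranes zip together to fuse them. Sec1/Munc18-type proteins guide SNARE pairing, synaptotagmins make fusion respond to calcium, and NSF with its adaptor alpha-SNAP (Napa) pulls spent SNARE complexes apart. In collecting duct principal cells this machinery carries the water channel Aqp2 between storage vesicles and the apical membrane under the control of vasopressin, and lithium treatment is known to disturb that control.

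RefSeq promoter windows of the members with the smallest p-values below and above 0, Rab31 and Rab7a, are shown with motif matches in capitals. Each is the 250 bases before the annotated start in build GRCr8, read 5′ to 3′ on the gene's strand. Rab31 lies on the minus strand at chr9:112828093-112828342 and Rab7a on the minus strand at chr4:122064186-122064435.
Rab31: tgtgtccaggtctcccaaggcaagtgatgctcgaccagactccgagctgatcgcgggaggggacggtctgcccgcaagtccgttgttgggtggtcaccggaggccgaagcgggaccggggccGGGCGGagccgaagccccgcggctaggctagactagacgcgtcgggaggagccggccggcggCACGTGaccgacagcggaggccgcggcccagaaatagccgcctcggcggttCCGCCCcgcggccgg
Rab7a: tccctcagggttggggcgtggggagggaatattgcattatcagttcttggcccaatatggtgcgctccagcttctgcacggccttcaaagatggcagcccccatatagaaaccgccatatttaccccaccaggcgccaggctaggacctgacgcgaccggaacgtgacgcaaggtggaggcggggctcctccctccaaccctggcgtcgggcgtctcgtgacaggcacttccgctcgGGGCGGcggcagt
The capitals mark a GC box (GGGCGG) or an E-box (CACGTG), searched on both strands, and no searched motif overlapped another in these windows. The Rab31 window held 2 GC boxes and 1 E-box, with 72.4% G and C, and the Rab7a window held 1 GC box and no E-box, with 62.8% G and C. Of 73 members with a window in the table, 54 (74.0%) held a GC box, against 30.5% of all 33469 promoters and 50.9% of the 3781 promoters of genes on the array. An E-box was found in 11 of the 73 (15.1%), against 5.59% of all promoters and 6.64% of those of array genes. The median share of G and C was 61.6% in members' windows, 58.8% in those of array genes and 51.2% in all. The part of base composition in the motif shares was not tested. The cAMP response element TGACGTCA was present in 3 of 73 (4.11%), Ap2b1, Napa and Vamp1. It was found in 1.59% of all promoters and 1.85% of those of array genes. These matches describe letters in a window, not binding sites.

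No trafficking gene passed the threshold, a limma adjusted p of 0.05 over all 3819 features tested, of which 17 (0.445%) passed. The gene nearest to it was Rab31, at 0.26 below 0, with an adjusted p of 0.0782, and it alone of the members passed an adjusted p of 0.1, as 1.28% of all features did. At an unadjusted p of 0.05, 8 of the 76 genes were counted, against 17.2% of all features. Of the 8, Rab4a, Rab7a, Sec11a and Stx5 had means above 0, where 9.71% of all features passed, and Rab31, Stx8, Syt3 and Vamp5 had means below 0, where 7.52% passed. The mean log ratios of the 76 tested members ran from −0.26 (Rab31) to 0.16 (Rab4a), and 65 of 76 (85.5%) lay within 0.1 of 0, against 79.3% of all features. On that scale 0.1 is a 1.26-fold difference in base 10 and a 1.07-fold one in base 2.

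The members' median was 0.0233, against 0.0133 over all features tested, and 51 members had means above 0, 24 below and 1 at 0. Over all features 55.7% were above 0 and 42.7% below. This split depends on the centring: 42 members lay above and 31 below when arrays were centred on features measured on all 3 arrays, and 39 above and 34 below with no centring. One sign on all 3 arrays was seen for 23 of 76 members (30.3%), 14 above 0 (24.1% of all features) and 9 below (14.6% of all features), against 38.7% of all features in either direction.

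**Figure D1:**
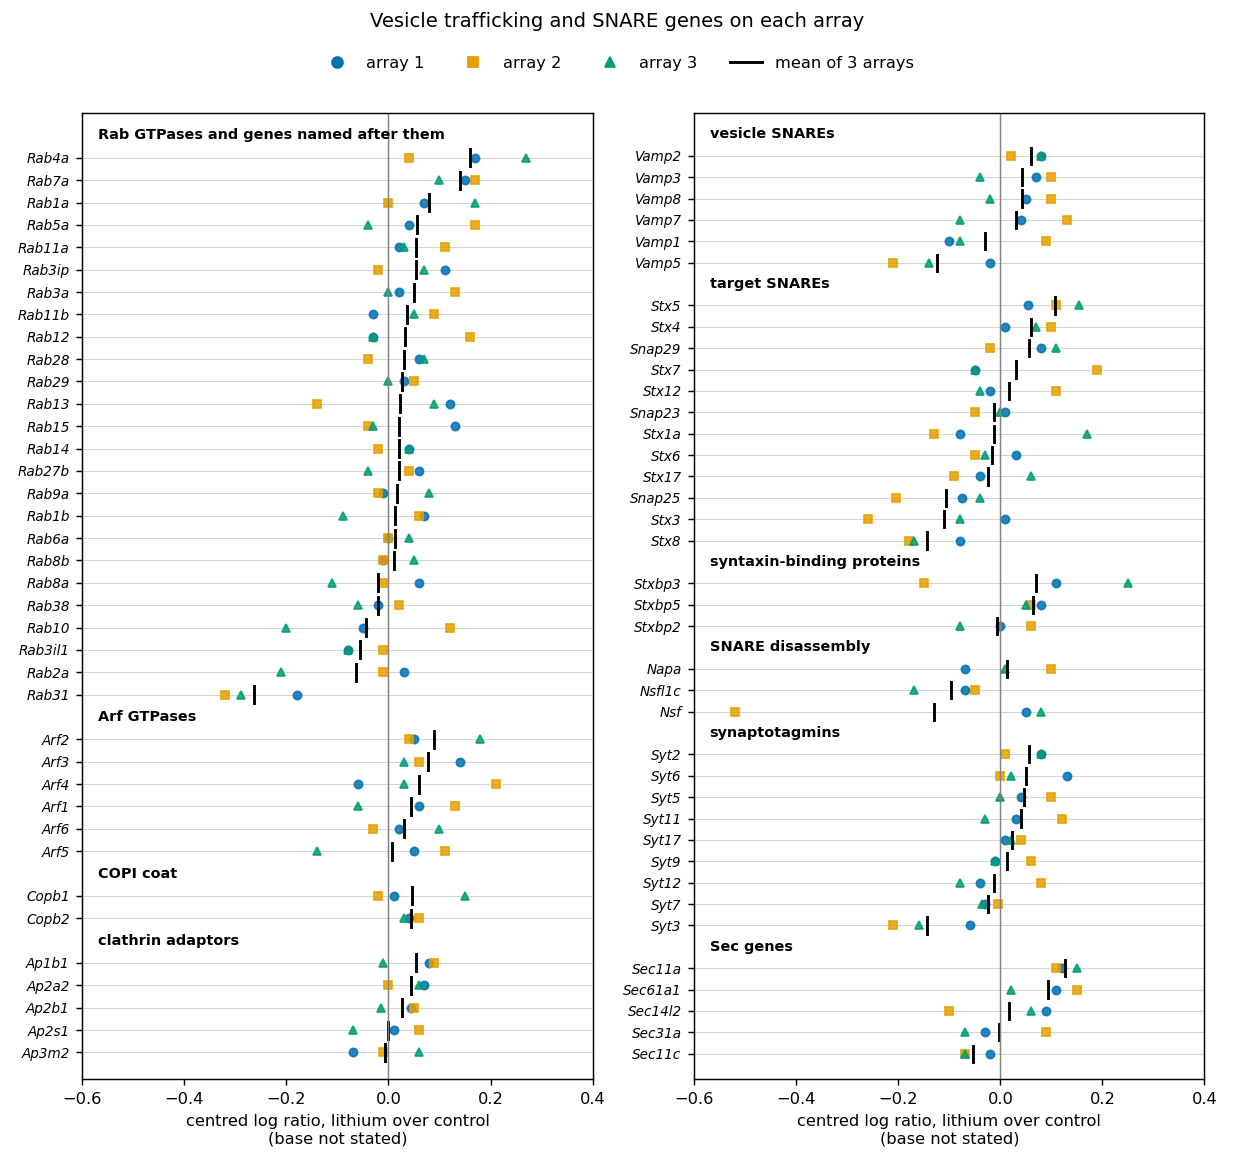
Centred log ratio (x axis, base not stated) of each of the 76 trafficking genes measured on all 3 arrays (rows, grouped by role and ordered by mean), with a blue circle, orange square and green triangle for arrays 1, 2 and 3 and a black bar for their mean. Most means lie within 0.1 of 0, all 3 values of Rab31 lie at −0.18 or lower, and Nsf has a single value of −0.52 on array 2.

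Rab GTPases and the genes named after them made up 28 of the members, and 25 were tested. Their median was 0.02, with 19 above 0 and 6 below, where 55.7% of all features were above 0. For the members as a whole such a split depended on the centring. Of the 25, 3 had an unadjusted limma p under 0.05, a smaller share than the 17.2% of all features. Rab31, a GTPase of the Rab5 subfamily that acts between the trans-Golgi network and endosomes, read −0.18, −0.32 and −0.29 on arrays 1, 2 and 3. All 3 values were below 0, and on arrays 1 and 3 they were the lowest of the 76 tested members. Its mean of −0.26 ± 0.07 (SD, n = 3) corresponds to 0.545 times the control level if the base is 10, or 0.833 times if it is 2 (1.83 or 1.20 times if the ratios run the other way), with a limma 95% interval from −0.37 to −0.16 and an unadjusted p of 0.000538. It ranked 32nd from the bottom among 3819 features as the ratios are read here, and a single probe read it. Rab31 did pass after scaling of the arrays to a common spread (adjusted p = 0.0166), with a robust prior (0.0118) and with array weights (0.00336). Many more features passed in those limma settings, 98, 94 and 1055 of 3819, against 17 in the main fit. The array weights were 4.52, 0.371 and 0.596, so that setting rests mostly on array 1. Without array 1, 2 or 3 the mean of Rab31 was −0.305, −0.235 and −0.25, with limma adjusted p-values of 0.742, 0.295 and 0.408. No feature passed in the fits with an array left out, and 0.742 was the lowest adjusted p of any member without array 1. In bulk RNA fewer cells of a type and less RNA per cell cannot be told apart, for this gene or any other here.

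Rab7a, the GTPase of late endosomes and lysosomes, read 0.15, 0.17 and 0.10, above 0 on every array and close together. Its mean was 0.14 ± 0.04 (SD, n = 3), a 1.38-fold difference in base 10 or 1.10-fold in base 2, with an adjusted p of 0.172 and an interval from 0.05 to 0.23. Rab4a, which returns cargo quickly from early endosomes to the surface, read 0.17, 0.04 and 0.27, all above 0 but spread more widely, with the largest value on the array that held 1 rat per channel. Its mean of 0.16 ± 0.12 was the highest of the 76 tested members, a 1.45-fold difference in base 10 or 1.12-fold in base 2 (adjusted p = 0.193). On arrays 1 and 3 Rab4a had the highest value of the 76 tested members.

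Other Rabs of the endosomal route were nearer to 0. Rab5a, of early endosomes, read 0.04, 0.17 and −0.04, with arrays on both sides of 0 (adjusted p = 0.595). Rab11a, which marks recycling endosomes and is found on Aqp2 vesicles, read 0.02, 0.11 and 0.03, with a mean of 0.05 and an interval from −0.04 to 0.15 (adjusted p = 0.547). Its relative Rab11b had a mean of 0.04, and Rab9a, of late endosome to Golgi return, one of 0.0167. Rab14 and Rab15 both stood at 0.02.

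Rabs of the secretory route showed no common direction. Rab3a, a GTPase of regulated exocytosis, read 0.02, 0.13 and 0.00 (mean 0.05, adjusted p = 0.591). Rab8a, of transport to the apical surface, read 0.06, −0.01 and −0.11, with a mean of −0.02 (adjusted p = 0.861). Rab38, known from lysosome-related organelles, read −0.02, 0.02 and −0.06 (adjusted p = 0.833). Of the Rabs between endoplasmic reticulum and Golgi, Rab1a had a mean of 0.08, Rab1b 0.0133 and Rab2a −0.06. Rab2a was near 0 on arrays 1 and 2 and at −0.21 on array 3. Rab10, which also serves surface delivery, read −0.05, 0.12 and −0.20, so that its arrays disagreed in sign. Rab3ip and Rab3il1 carry Rab3 in their symbol but encode exchange factors rather than GTPases, and stood at 0.05 and −0.06. The remaining tested Rabs (Rab6a, Rab8b, Rab12, Rab13, Rab27b, Rab28 and Rab29) had means between 0.01 and 0.0333.

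All 6 Arf GTPases, which recruit coats to Golgi and endosome membranes, had means above 0, from 0.00667 (Arf5) to 0.09 (Arf2), with a median of 0.05. None had an unadjusted p under 0.05, and the smallest adjusted p was 0.356, for Arf2. Over all features 55.7% had means above 0, and the sign of a mean as near 0 as that of Arf5 depends on the centring. Arf2 read 0.05, 0.04 and 0.18 and Arf3 read 0.14, 0.06 and 0.03, both above 0 on every array. Arf6, the family member of the plasma membrane and endosomal recycling, read 0.02, −0.03 and 0.10, on both sides of 0 (mean 0.03, adjusted p = 0.767). The COPI coat subunits Copb1 and Copb2, which act downstream of Arf1 in Golgi traffic, stood at 0.05 and 0.04, with adjusted p-values of 0.654 and 0.597.

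Among the clathrin adaptors, 5 of 8 genes were tested, and their means ran from −0.00667 (Ap3m2) to 0.05 (Ap1b1). None had one sign on all arrays. The AP-2 complex sorts cargo at the plasma membrane for endocytosis. Its subunits Ap2a2, Ap2b1 and Ap2s1 stood at 0.04, 0.03 and 0.00. The probes of Ap2b1 disagreed in sign on every array, reading 0.16, −0.03 and 0.02 for the first and −0.07, 0.13 and −0.05 for the second. The medium chain Ap2m1, which binds the sorting signal of the cargo, read 0.22 and 0.23 on arrays 1 and 2 and had no value on array 3. In the fit of features measured on at least 2 arrays, its adjusted p was 0.130.

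The vesicle SNAREs were represented by 6 tested genes, of which 4 had means above 0. Vamp2, the synaptobrevin found on Aqp2-bearing vesicles, read 0.08, 0.02 and 0.08, all above 0 (mean 0.06 ± 0.03, SD, n = 3; adjusted p = 0.471). Its interval, from −0.03 to 0.15, reached a 1.42-fold difference in base 10 at its upper end. Vamp3, its widely expressed relative, read 0.07, 0.10 and −0.04, and Vamp8, an endosomal SNARE also present in collecting duct cells, read 0.05, 0.10 and −0.02. Both had a mean of 0.04 and a negative value on array 3 only (adjusted p = 0.659 and 0.639). Vamp5, known from muscle, read −0.02, −0.21 and −0.14, below 0 on every array (mean −0.12 ± 0.10, unadjusted p = 0.0371, adjusted p = 0.256). Vamp1 and Vamp7 stood at −0.03 and 0.03.

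The 12 target-membrane SNAREs were all tested, and their median was −0.0133, with 5 above 0 and 7 below. Stx8, a SNARE of late endosome fusion, read −0.08, −0.18 and −0.17, all below 0 (mean −0.14 ± 0.06, SD, n = 3). This is 0.719 times the control level for base 10, or 0.905 times for base 2 (1.39 or 1.10 times if the ratios run the other way), with an unadjusted p of 0.0107 and an adjusted p of 0.176. Stx7, its partner in the late endosomal complex, read −0.05, 0.19 and −0.05, a mean of 0.03 with arrays on both sides of 0 (adjusted p = 0.824). Stx5, the SNARE of traffic into and within the Golgi, read 0.06, 0.11 and 0.16 as the mean of its probes, above 0 on every array (mean 0.11 ± 0.05, unadjusted p = 0.0355, adjusted p = 0.255). Its probes read 0.11, 0.02 and 0.13 in one case and 0.00, 0.20 and 0.18 in the other, so they ordered the arrays differently.

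The syntaxins of the plasma membrane, where Aqp2 vesicles fuse, lay on both sides of 0, with overlapping intervals. Stx4 read 0.01, 0.10 and 0.07 (mean 0.06 ± 0.05, SD, n = 3; adjusted p = 0.484), above 0 on all arrays. Stx3, an apical syntaxin, read 0.01, −0.26 and −0.08 (mean −0.11 ± 0.14, adjusted p = 0.367), a mean set largely by array 2 and equal to −0.035 without it. The interval of Stx3 was −0.24 to 0.02 and that of Stx4 −0.04 to 0.16, and their difference was not tested. Stx12, of recycling endosomes, read −0.02, 0.11 and −0.04 (adjusted p = 0.888). Stx1a, the neuronal syntaxin, stood at −0.0133, with values from −0.13 to 0.17. Stx6, of the trans-Golgi network, and Stx17, of autophagosomes, stood at −0.0167 and −0.0233.

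The SNAP-25 family showed values on both sides of 0. Snap23, the form of non-neuronal cells, read 0.01, −0.05 and 0.00, close to 0 on every array (mean −0.0133 ± 0.03, SD, n = 3; interval −0.11 to 0.08). Snap25, the neuronal form, read −0.08, −0.21 and −0.04, below 0 on every array (mean −0.11 ± 0.09, unadjusted p = 0.0551, adjusted p = 0.30). The Snap25 values mix probes, since the first had no value on array 3 and read −0.02 and −0.16 where the second read −0.13 and −0.25. Snap29, a SNARE of endosome and autophagosome fusion, stood at 0.06. Of the fixed neuronal and neuroendocrine markers, 11 of 18 were tested, and their median was −0.0233, with 5 above 0. None passed in limma, while 2 (18.2%, against 17.2% of all features) had an unadjusted p under 0.05, Map2 at −0.17 and Uchl1 at 0.12. The part of such cells in the values of Snap25 and the synaptotagmins was not tested.

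**Figure D2:**
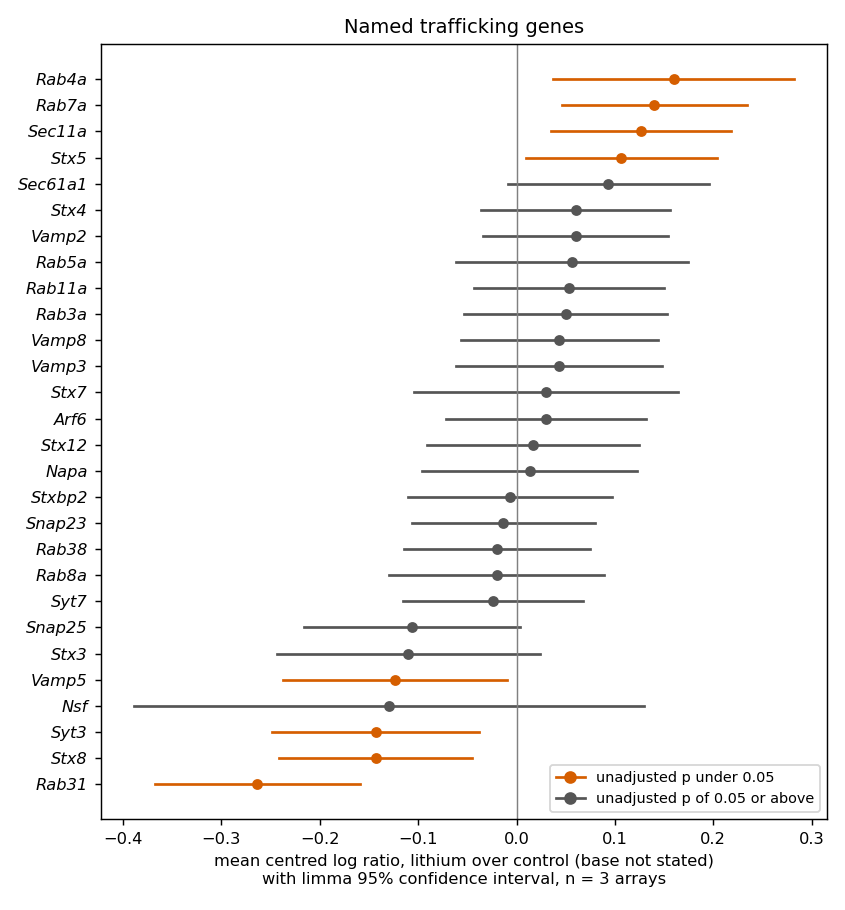
Mean centred log ratio (x axis, base not stated) with its limma 95% confidence interval for the 28 named trafficking genes, over 3 arrays, in orange where the unadjusted p was under 0.05 and grey otherwise. The interval of Rab31 runs from −0.37 to −0.16, and the interval of Nsf is the widest. The vesicle SNARE Vamp2 and the target SNAREs Stx4 and Snap23 have intervals that include 0.

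Genes that regulate or take apart SNARE complexes had means from −0.13 (Nsf) to 0.07 (Stxbp3), some with arrays far apart. The syntaxin-binding genes Stxbp2, Stxbp3 and Stxbp5 had means of −0.00667, 0.07 and 0.06. Stxbp2 (Munc18-2, the epithelial form) read 0.00, 0.06 and −0.08 (adjusted p = 0.954). Stxbp3, a partner of Stx4, read 0.11, −0.15 and 0.25, a spread of 0.20 (SD, n = 3) that exceeds its mean. The probes of Stxbp5 (tomosyn, which blocks SNARE assembly) read 0.17, 0.17 and 0.05 in one case and −0.01, −0.05 and 0.05 in the other.

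Nsf, the ATPase that recycles SNAREs, read 0.05, −0.52 and 0.08. The value on array 2 was the lowest of any tested member on any array, and the other arrays were above 0. The mean of −0.13 ± 0.34 (SD, n = 3; adjusted p = 0.578) therefore rests on array 2, and without it the mean was 0.065. A single probe read Nsf. Napa, which brings NSF to the SNARE complex, read −0.07, 0.10 and 0.01 (adjusted p = 0.911). Nsfl1c, a cofactor of the related ATPase p97 that the symbol rule also takes in, read −0.07, −0.05 and −0.17, below 0 on every array (mean −0.10, unadjusted p = 0.0588, adjusted p = 0.308).

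Synaptotagmins numbered 14 on the array, and 9 were tested. Their median was 0.0233, with 6 above 0. Syt3, a calcium-binding member known from neurons, read −0.06, −0.21 and −0.16, below 0 on every array. Its mean of −0.14 ± 0.08 (SD, n = 3) equals that of Stx8, with an unadjusted p of 0.0147 and an adjusted p of 0.183. Syt7, a calcium sensor of lysosome exocytosis that is widely expressed, stood at −0.0239 as the mean of 4 probes. On array 3 its probes ran from −0.22 to 0.11, and 1 of them had no value there. The other 7 tested synaptotagmins had means from −0.0133 (Syt12) to 0.06 (Syt2).

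Members with a Sec symbol include genes of protein entry into the secretory pathway. Sec11a, a catalytic subunit of the signal peptidase, read 0.12, 0.11 and 0.15, among the closest triplets of the members (mean 0.13 ± 0.02, SD, n = 3). That is a 1.34-fold difference in base 10 or 1.09-fold in base 2, with an unadjusted p of 0.0134 and an adjusted p of 0.181. Its alternative subunit Sec11c read −0.02, −0.07 and −0.07 (mean −0.05, adjusted p = 0.521), so that Sec11a was above 0 and Sec11c below 0 on every array. The difference between them was not tested. Sec61a1, the channel subunit of the translocon, read 0.11, 0.15 and 0.02, all above 0 (mean 0.09, unadjusted p = 0.0676, adjusted p = 0.325). Sec31a, of the COPII outer coat, stood at −0.00333, and Sec14l2, a lipid-binding protein outside vesicle traffic proper, at 0.0167.

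The 13 genes without a value on array 3 were 14.6% of the members, against 22.0% of all named genes. They comprised 5 of 14 synaptotagmins (Syt1, Syt4, Syt8, Syt10 and Syt13), 3 of 8 clathrin adaptors (Ap2m1, Ap3m1 and Snap91), 3 Rabs (Rab3c, Rab26 and Rab27a) and 2 Sec genes (Sec14l3 and Sec22a). All 6 vesicle SNAREs, all 12 target SNAREs and all 6 Arfs had values on every array. Of the 13, 5 were below 0 on both remaining arrays and 4 above on both. Among all 967 named genes without a value on array 3, 567 were below 0 on both and 70 above on both. Rab3c, a Rab of regulated secretion, read −0.15 and −0.41 (mean −0.28, adjusted p = 0.171 in the fit of features on at least 2 arrays). The neuronal synaptotagmins Syt4 and Syt10 read −0.15 and −0.14, and −0.16 and −0.12 (adjusted p = 0.217 and 0.233). Snap91, a clathrin assembly protein of neurons, differed between its probes on array 1, at 0.03 and 0.35. Rab27a, of secretory granule docking, read 0.04 and −0.08, and the others of the 13 had means from −0.17 (Ap3m1) to 0.11 (Syt13). None of the 13 passed in that limma fit, where 11 of all 89 members had an unadjusted p under 0.05, against 20.1% of all features in that fit. Whether a missing value reflects a dim spot is unknown, as spot intensities were not used here.

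**Figure D3:**
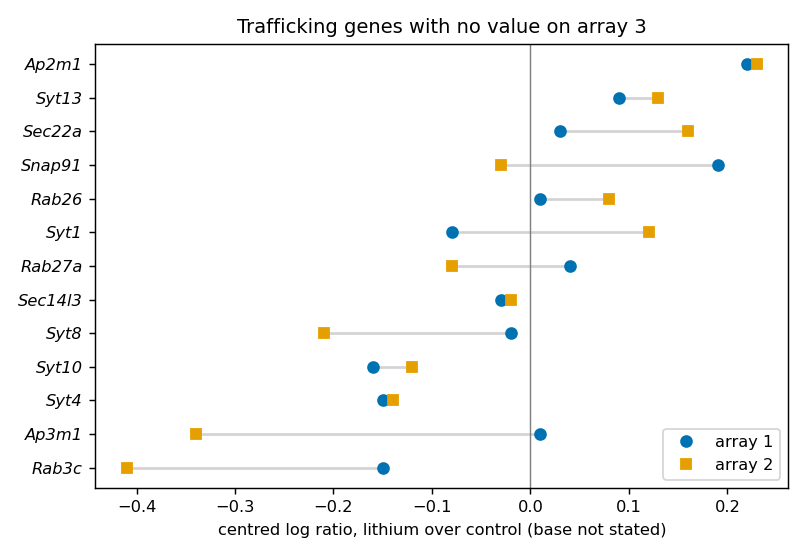
Centred log ratios (x axis, base not stated) on arrays 1 (blue circles) and 2 (orange squares) of the 13 trafficking genes (rows, ordered by mean) with no value on array 3, each pair joined by a grey line. Ap2m1 lies at 0.22 and 0.23, Syt4 at −0.15 and −0.14, and Rab3c reaches −0.41 on array 2.

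The arrays ordered the members differently. Across the 76 members, arrays 1 and 3 had a Pearson r of 0.517 (Spearman 0.456), arrays 1 and 2 one of 0.185 (0.107), and arrays 2 and 3 one of 0.0677 (−0.0707). Over all 3819 features the values of r were 0.481, 0.465 and 0.157 for the same pairs. These correlations are across genes, which are not independent replicates, and they describe the arrays only. The SD across members was 0.067, 0.123 and 0.103 on arrays 1, 2 and 3, against 0.0992, 0.135 and 0.114 across all features.

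**Figure D4:**
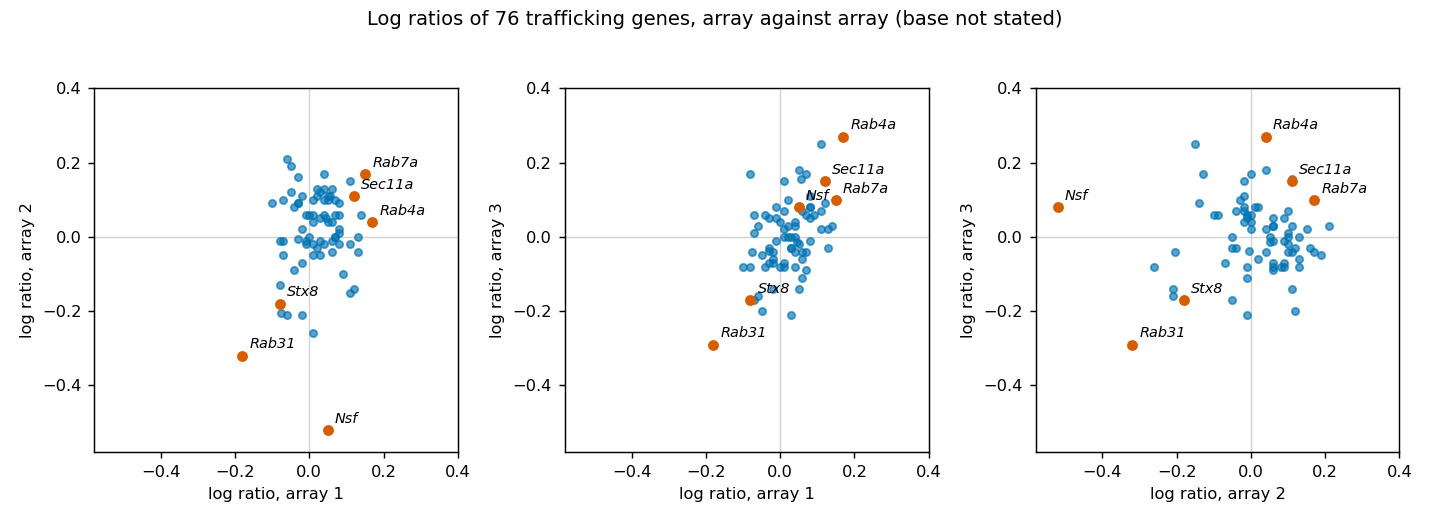
Centred log ratios (base not stated) of the 76 trafficking genes plotted for arrays 1 and 2, 1 and 3, and 2 and 3, 1 point per gene, with 6 genes in orange and labelled. Rab31 and Stx8 lie below 0 and Rab7a, Rab4a and Sec11a above 0 on both axes of every panel, while Nsf is far below 0 only on array 2.

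Other genes of the same machinery, from a list of 145 symbols outside the rule, were read in the same fit. Of these, 101 had a probe and 90 were tested. Their median was 0.00333, and 46 were above 0, 42 below and 2 at 0. None passed the adjusted threshold, and 10 (11.1%, against 17.2% of all features) had an unadjusted p under 0.05, 9 with means above 0 and 1 below. The smallest p-values belonged to Sh3gl2, an endophilin of clathrin-coated vesicle uncoating, at 0.20 (adjusted p = 0.136), and Unc13d, a Munc13 priming factor of granule release, which read 0.15 on every array (adjusted p = 0.144). Next came Gorasp1, a Golgi stacking protein, at 0.16 (adjusted p = 0.15), and Epn1, an endocytic epsin, at 0.16 (adjusted p = 0.176).

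The labelled tissue could be checked only by which marker genes were measured, since ratios carry no level. All 8 collecting duct markers had values on every array and means above 0, from 0.00667 (Aqp3) to 0.49 (Hsd11b2). Values on every array were also present for 3819 of all 5086 features, so their presence says little about the tissue. Of the 8 collecting duct markers, 7 had an unadjusted limma p under 0.05, against 17.2% of all features. Hsd11b2 passed the adjusted threshold (adjusted p = 0.0234), and Aqp2 itself read 0.11, 0.26 and 0.14 (adjusted p = 0.153). Lithium is known to lower Aqp2, so the assumed direction of all ratios remains in doubt. The 3 limb markers measured all had means below 0, with a median of −0.18, and all 3 had an unadjusted limma p under 0.05. Of the leukocyte markers 5 of 6 were tested, with means from −0.39 (Itgam, unadjusted p = 0.00504) to 0.16 (Cd4, unadjusted p = 0.0048). Of the endothelial markers 1 of 4 was tested, Kdr at −0.00667. The part of cell composition in the members' values was not tested.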

How the data were processed

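RNA of rat inner medulla was compared on 3 two-colour arrays, described above. The deposited table holds 1 log ratio per probe and array with 2 decimals, for 5760 probes. How the authors scanned, background-corrected and normalized the arrays, and the log base, is not given in the sources used here. Medians of the deposited columns were −0.02, −0.04 and 0.00. The scale, any centring by the submitters and the direction stay unknown. Of the probes, 178, 78 and 1473 were empty on arrays 1, 2 and 3. Probes were named from the platform's annotation, in which 5064 had 1 gene symbol, 9 had several and 687 were not listed.

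Each array's median was subtracted, probes of a gene were averaged per array, and the 3819 features measured on all 3 arrays were fitted with limma 3.58.1 in R 4.3.3 (intercept-only lmFit, eBayes, Benjamini-Hochberg over all features, two-sided, adjusted p of 0.05). The spread is that between arrays, 2 of which pooled rats, and an exact sign test on 3 arrays cannot go below p = 0.25. Simulated data of the same size with 200 changed features gave back 8.96%, 85.1% and 100% of shifts of 0.15, 0.30 and 0.50, with 3 false calls, under independent normal noise. The noise of a simulated feature was equally large on all 3 arrays, whereas the array weights of the real data were 4.52, 0.371 and 0.596. These shares therefore need not hold for the real arrays. Members and lists were chosen with earlier results of these data known, so members are described by counts and medians, without a list test. Array values are given for members with an unadjusted p under 0.05, for those with 1 sign and a mean of at least 0.1, and for 21 measured genes of a list taken from collecting duct vesicle traffic. Some further members are given by array after their values were seen. Promoters came from RefSeq windows (GRCr8), matched by gene ID. Tables were made with pandas 2.3.3 and numpy 2.4.6 under Python 3.11.15, and figures with matplotlib 3.10.9.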

Additional observations from a re-analysis of the deposited data

How the results depend on the processing

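The count of members past the threshold was 0 under no centring, single probes, features on at least 2 arrays, both other centrings, exact zeros left out, and each array left out. It was 1 (Rab31) with arrays scaled to the same spread, 1 with a robust prior and 1 at an adjusted p of 0.1. With array weights it was 9 of 76, where 1055 of all 3819 features passed. Those weights were 4.52, 0.371 and 0.596 for arrays 1, 2 and 3, so that setting rests mostly on array 1. The count over all features, 17 of 3819, became 98 with scaling, 94 with a robust prior and 1055 with array weights. It was 40 of 4930 with features on at least 2 arrays, 11 of 4250 with single probes and 49 of 3819 at an adjusted p of 0.1. Without any 1 array it was 0. Without array 1, 2 and 3, limma gave 172, 606 and 445 of 3819 features an unadjusted p under 0.05. In the same fits 4, 10 and 4 of the 76 members had an unadjusted p under 0.05. Members with 1 sign ranged from 31 to 45 of 76 with an array left out, where 2 arrays had to share a sign instead of 3. The same share over all features was not counted for 2 arrays, so this range has no background beside it. The members' median kept its sign, from 0.0125 to 0.0325 with an array left out and from 0.00333 with no centring to 0.0253 with array weights otherwise. Block-wise centring over the 32 blocks of spots was chosen after seeing the data.

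For single genes, 251 alternative values kept direction and side of the threshold, and 5 were exactly 0 (for Rab5a, Rab8a, Rab38 and Stx12). A further 8 passed the threshold newly and 22 changed sign. No member was past the threshold in the main fit, so these counts cannot show how stable a passing gene would be. With array weights, signs turned for Napa (−0.0498), Nsf (0.0148), Rab8a (0.0368), Snap23 (0.00486), Stx12 (−0.0134) and Stx7 (−0.0338). With no centring they turned for Napa (−0.00667) and Stx12 (−0.00333), and with centring on features measured on all 3 arrays for Napa (−0.00333). With block-wise centring they turned for Snap23 (0.01), Stxbp2 (0.01) and Vamp3 (−0.0117), and 2 single probes of Syt7 stood at 0.0233 and 0.02. With an array left out, values spanned 0 for Arf6 (−0.005 to 0.06), Napa (−0.03 to 0.055), Nsf (−0.235 to 0.065), Rab8a (−0.06 to 0.025), Snap23 (−0.025 to 0.005), Stx12 (−0.03 to 0.045), Stx7 (−0.05 to 0.07) and Stxbp2 (−0.04 to 0.03). The cause was not tested. Each array is itself a ratio, so the intercept-only fit already compares lithium with control within each array. The arrays form 1 group, and no further pairing was used. Fits on fewer arrays also test with fewer degrees of freedom, and signal over background is unknown, which limits how dim spots can be weighed.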
